A study of Mus musculus with 9 samples.

Results

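Expression of 7 genes of the thick ascending limb of the loop of Henle was compared between kidneys of young and old mice. The genes (Slc12a1, Kcnj1, Bsnd, Kcnj16, Umod, Egf and Ptger3) were listed by symbol for their place in salt transport by this segment, and all 7 were found among the 13081 genes of the deposited table. The young group held 4 libraries from kidneys of mice aged 3 months and the old group 5 libraries from kidneys of mice aged 16 months. All mice were wild type, and the labels name no agent for either group. The labels name no strain, sex or part of the kidney, and the study describes its aging cohorts as C57BL/6 mice. Each library was made from total kidney RNA by priming on poly(A) tails and reading transcript ends. All segments and cell types in the tissue were therefore measured together.

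The thick ascending limb reabsorbs sodium chloride without water. The apical cotransporter NKCC2 (Slc12a1) takes up sodium, potassium and chloride, and the apical channel ROMK (Kcnj1) returns potassium to the lumen. Chloride leaves at the basolateral side through channels that need the subunit barttin (Bsnd), and basolateral potassium channels that contain Kir5.1 (Kcnj16) help to set the membrane voltage. The same cells secrete uromodulin (Umod), the most abundant protein of normal urine, and make the precursor of epidermal growth factor (Egf), while the prostaglandin E2 receptor EP3 (Ptger3) lowers salt transport in this segment. Loss of Slc12a1, Kcnj1 or Bsnd causes forms of Bartter syndrome, a salt-wasting disorder.

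Slc12a1, Egf and Kcnj16 were higher in old than in young kidneys, by 1.61- to 2.08-fold, and Bsnd was 2.03-fold lower. For these 4 genes no old library lay within the range of the young libraries. Umod, Kcnj1 and Ptger3 did not pass the test, with means 1.14 to 1.20 times as high in old kidneys and overlapping values. A gene was called higher or lower when its adjusted p-value from limma, fitted across all 12667 genes tested, was under 0.05. By that rule 3 of the 7 genes (42.9%) were called higher, against 29.2% of all genes, and 1 of 7 (14.3%) was called lower, against 30.5%. Groups that did not overlap, with old above young, were found in 23.3% of all genes, and with old below young in 25.7%. These shares are large, so a call alone sets none of the 7 genes apart from other kidney genes. The median log2 fold change was 0.23 over the 7 genes and -0.0027 over all genes tested.

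Library titles begin with a prefix that follows age completely, so differences in preparation or sequencing cannot be told apart from age. The listed genes held 5093029 to 6355095 reads per library in young and 4486406 to 5794960 in old kidneys, and 1 read was worth 0.819 to 1.18 normalised counts. The 2 mitochondrial ribosomal RNA genes took 2.98% to 4.46% of these reads in young and 21.8% to 25.4% in old libraries. Leaving out mitochondrial genes before scaling moved the median log2 fold change of all genes by 0.14, and the share of calls that were higher in old from 48.9% to 58.5%. None of the 7 genes changed its direction under any scaling tried. The part of the ribosomal RNA share in the results was not tested. P-values of limma set the difference between ages against the spread between these libraries. Fewer cells of a type cannot be told apart from less RNA per cell in bulk RNA.

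The upstream sequences of the 3 genes that rose are shown with that of Umod, a gene of the same cells that did not pass the test. They come from RefSeq (GRCm38.p6), are given 5′ to 3′ on the strand of the gene, and end at the base before the start site or before the first annotated exon. Capitals mark a match, on either strand, to a searched motif.
Slc12a1, chr2:125152350-125152504 (plus strand): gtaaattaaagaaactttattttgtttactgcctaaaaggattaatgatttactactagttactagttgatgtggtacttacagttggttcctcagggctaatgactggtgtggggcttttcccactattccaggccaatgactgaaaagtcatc
Egf, chr3:129755323-129755572 (minus strand): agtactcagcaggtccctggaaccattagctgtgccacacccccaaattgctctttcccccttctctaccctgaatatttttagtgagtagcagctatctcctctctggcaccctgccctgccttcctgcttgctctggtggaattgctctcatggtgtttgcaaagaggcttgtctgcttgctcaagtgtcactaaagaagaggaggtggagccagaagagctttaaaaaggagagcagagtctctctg
Kcnj16, chr11:110967783-110968032 (plus strand): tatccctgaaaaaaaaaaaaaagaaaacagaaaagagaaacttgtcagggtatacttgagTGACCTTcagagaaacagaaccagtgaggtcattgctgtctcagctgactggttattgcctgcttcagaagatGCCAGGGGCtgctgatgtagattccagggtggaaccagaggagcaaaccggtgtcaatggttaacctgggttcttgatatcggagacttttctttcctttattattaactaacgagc
Umod, chr7:119479283-119479512 (minus strand): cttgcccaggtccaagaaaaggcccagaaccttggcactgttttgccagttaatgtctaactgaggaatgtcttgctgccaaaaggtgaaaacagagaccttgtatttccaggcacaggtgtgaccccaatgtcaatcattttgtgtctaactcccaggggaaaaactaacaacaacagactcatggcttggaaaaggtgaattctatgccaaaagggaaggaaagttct

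The motifs searched in the 250 bases before each RefSeq start were AAGGTCA (estrogen-related receptors), ATGCAAAT (POU factors), GCCNNNGGC (AP-2 factors) and TATAAA (the TATA box). The RefSeq promoters used here matched 6 of the 7 genes by symbol, those other than Bsnd, with 10 promoters. The first of the Kcnj16 promoters held AAGGTCA 190 bases and GCCNNNGGC 117 bases before the start. Another Kcnj16 promoter held TATAAA at 133 bases, and the promoters of Umod, Slc12a1, Kcnj1, Egf and Ptger3 held none of the 4 motifs. Among all 32851 RefSeq promoters, AAGGTCA occurred in 4.08%, ATGCAAAT in 1.60%, GCCNNNGGC in 13.7% and TATAAA in 12.4%. These matches are descriptions of letters and not evidence of binding.

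Slc12a1 lies on the plus strand of chromosome 2 (125152505 to 125230002, GRCm38) with 27 exons in its longest transcript. Its normalised counts were 1970, 1764, 2000 and 2145 in young replicates 1 to 4 and 2870, 2880, 3030, 4104 and 3704 in old replicates 1 to 5. Each old library lay above each young one, and old replicates 4 and 5 were the highest. The mean rose from 1970 ± 157 (SD, n = 4) to 3318 ± 557 (SD, n = 5), a 1.68-fold difference. The log2 fold change was 0.74 with a standard error of 0.11 (95% CI 0.50 to 0.98, adjusted p = 1.63e-05 by limma), larger than the spread between libraries. It lay at the 82.8th percentile of the fold changes of all genes tested.

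Kcnj1, whose product recycles the potassium that NKCC2 takes up, lies on chromosome 9 (32372493 to 32399197, plus strand, GRCm38) and is also expressed by the collecting duct. Young libraries held 138, 152, 149 and 129 normalised counts and old libraries 145, 140.0, 180.5, 197 and 159. Old replicates 3, 4 and 5 were above all young libraries, whereas replicates 1 and 2 lay within the young range. The means of 142 ± 10.7 (SD, n = 4) and 164 ± 24.0 (SD, n = 5) gave a log2 fold change of 0.20 (SE 0.13, 95% CI -0.07 to 0.48, adjusted p = 0.188 by limma). The interval includes no change as well as a rise of the size seen without mitochondrial genes, a setting under which Kcnj1 passed the test (0.34, adjusted p = 0.0298 by limma, with 0.0298 to 0.392 over all alternatives).

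Bsnd was the only one of the 7 genes called lower. It encodes barttin, carries 4 exons and lies on chromosome 4 (106483456 to 106492283, minus strand, GRCm38). Normalised counts were 161, 157, 168 and 187 in the young libraries and 74.3, 112, 99.4, 66.2 and 63.65 in the old libraries. The highest old value, in replicate 2, was below the lowest young value, and old replicates 4 and 5, which held most Slc12a1, held least Bsnd. The mean fell from 168 ± 13.3 (SD, n = 4) to 83.0 ± 21.3 (SD, n = 5), a log2 fold change of -1.04 (SE 0.17, 95% CI -1.39 to -0.70, adjusted p = 2.63e-05 by limma). Intercalated cells and the thin ascending limb also express Bsnd. The summed level of 6 intercalated cell markers was 850.1 to 1021 normalised counts in young and 628 to 800.3 in old libraries. Of these markers 4 were called lower and 1 higher, against 30.5% and 29.2% of all genes. The sum of 4 thin limb markers was 3535 to 3881 in young and 4149 to 5278 in old libraries. Of the 3 thin limb markers tested 1 was called higher, and their median log2 fold change was 0.03. That list is for the thin limb and not for its ascending part alone. The part of both marker lists in the Bsnd difference was not tested.

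Kcnj16 varied least between old libraries among the 7 genes. It spans 110968033 to 111027968 on the plus strand of chromosome 11 (GRCm38) and encodes the Kir5.1 subunit, which the proximal and distal convoluted tubules express as well. Young libraries held 1226, 1188, 1178 and 1092 normalised counts and old libraries 1772, 1736, 1920, 2148 and 1868. Every old value was above every young value, with old replicate 4 again the highest. The mean rose 1.61-fold, from 1171 ± 56.7 (SD, n = 4) to 1889 ± 163 (SD, n = 5), with a log2 fold change of 0.69 (SE 0.09, 95% CI 0.50 to 0.87, adjusted p = 2.75e-06 by limma). Distal convoluted tubule markers summed to 3755 to 4730 in young and 5565 to 6809 in old libraries and proximal tubule markers to 190800 to 223400 and 128200 to 179600, and their part in the Kcnj16 difference was not tested.

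**Figure D1:**
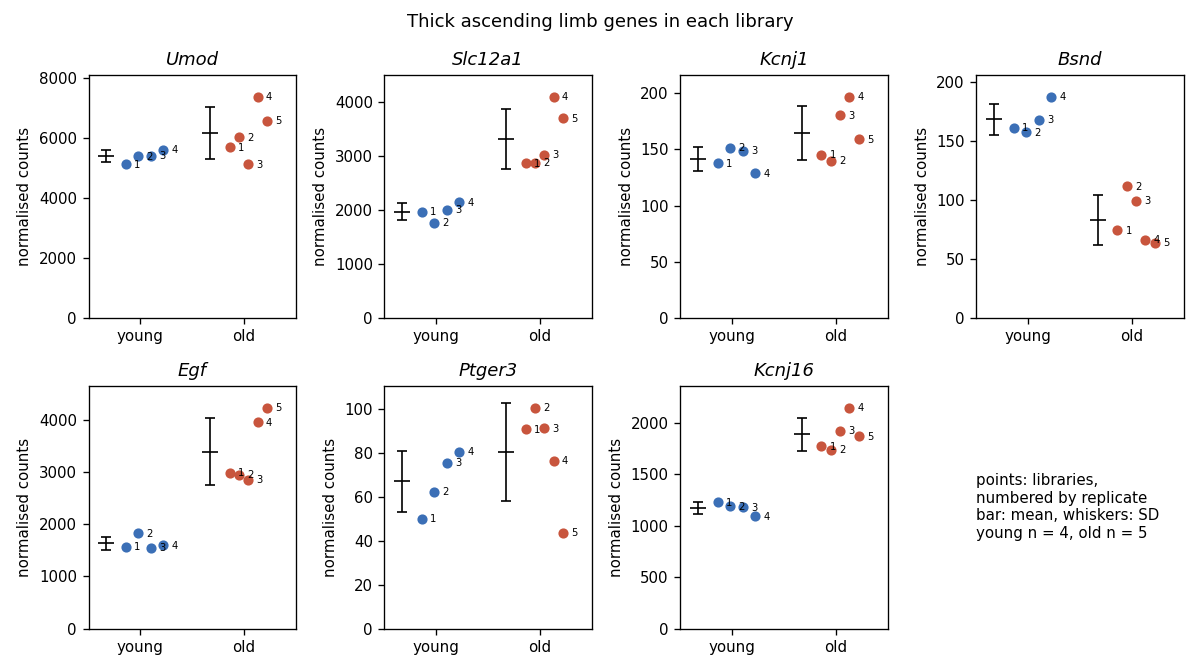
Normalised counts (vertical axes, each from 0) of the 7 genes in each library, with points numbered by replicate, young libraries in blue and old libraries in red, and the mean and SD of each group at its left. Old libraries lie wholly above young ones for Slc12a1, Egf and Kcnj16 and wholly below them for Bsnd, while Umod, Kcnj1 and Ptger3 overlap.

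Umod, a widely used marker of the thick ascending limb, had the smallest fold change of the 7 genes. The gene lies on chromosome 7 (119462711 to 119479282, minus strand, GRCm38). Young libraries held 5122, 5389, 5395 and 5611 normalised counts, and old libraries 5681, 6021, 5121, 7367 and 6576. Old replicate 3 was level with the lowest young library (5121 and 5122), and the other old libraries lay above all young ones. Means were 5379 ± 200.3 (SD, n = 4) and 6153 ± 859.9 (SD, n = 5), a log2 fold change of 0.18 (SE 0.11, 95% CI -0.04 to 0.41, adjusted p = 0.144 by limma). Umod passed the test without old replicate 3 (0.25, adjusted p = 0.0406), without mitochondrial genes (0.33, adjusted p = 0.00853) and with the trend of transcript length removed (0.34, adjusted p = 0.00878). Over all alternatives its adjusted p ranged from 0.00853 to 0.349.

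Egf had the largest rise of the 7 genes. It lies on chromosome 3 (129677565 to 129755316, minus strand, GRCm38), has 24 exons, and encodes the membrane-bound precursor of a growth factor that the distal convoluted tubule also makes. The young libraries held 1564, 1823, 1548 and 1595 normalised counts and the old libraries 2992, 2943, 2849, 3953 and 4235. All old values were above all young values, and replicates 4 and 5 stood above the other old libraries. The mean rose 2.08-fold, from 1633 ± 128 (SD, n = 4) to 3394 ± 649 (SD, n = 5), with a log2 fold change of 1.04 (SE 0.12, 95% CI 0.79 to 1.29, adjusted p = 5.52e-07 by limma). Of the 5 distal convoluted tubule markers 3 were called higher and 2 lower, against 29.2% and 30.5% of all genes. Their sum was higher in each old library than in any young one, and their part in the Egf difference was not tested. The small RNA gene Gm24515 overlaps Egf on the same strand in the annotation used here.

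Ptger3, whose product couples prostaglandin E2 to lower cyclic AMP, had the widest spread of the 7 genes. It lies on chromosome 3 (157566892 to 157645888, plus strand, GRCm38), and the collecting duct expresses it too. Young libraries held 49.96, 62.2, 75.5 and 80.6 normalised counts and old libraries 90.8, 101, 91.3, 76.5 and 43.5. Old replicates 1 to 3 were above every young library and old replicate 5 was below every one. Means were 67.05 ± 13.8 (SD, n = 4) and 80.5 ± 22.4 (SD, n = 5), and the log2 fold change was 0.23 (SE 0.22, 95% CI -0.23 to 0.69, adjusted p = 0.385 by limma). Without old replicate 5 it was 0.43 and passed the test (adjusted p = 0.0421, with 0.0421 to 0.746 over all alternatives). Its lowest value, 43.5, was well above the floor of 3 reads, which was at most 3.54 normalised counts in any library and covers counting error only.

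**Figure D2:**
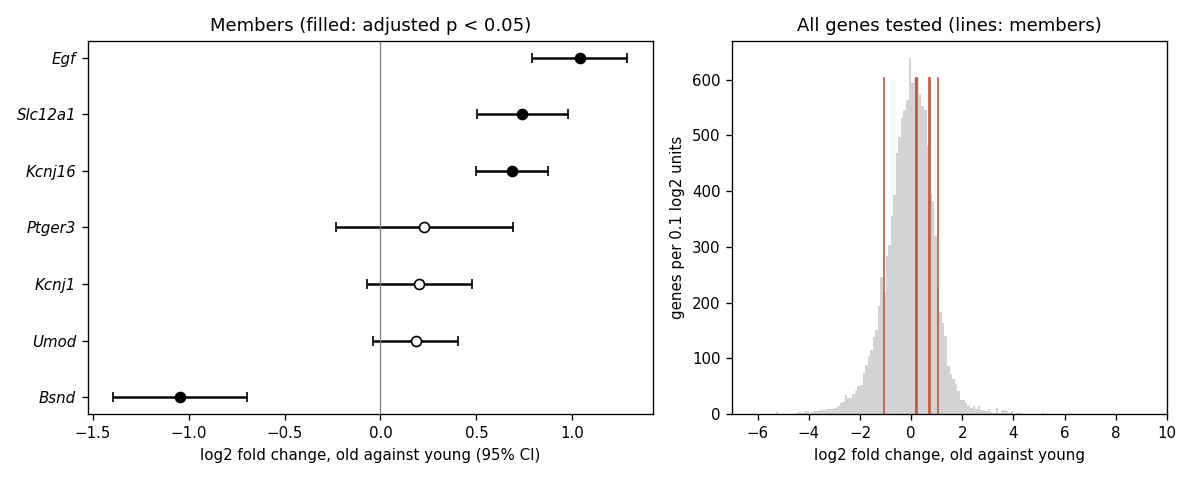
Left, log2 fold change of old against young kidneys with its 95% CI for each of the 7 genes, filled where the adjusted p-value was under 0.05; right, the number of genes per 0.1 log2 units over all 12667 genes tested, with a line at each of the 7. Egf (1.04) and Bsnd (-1.04) lie farthest from 0, within the range of the other genes, and Umod, Kcnj1 and Ptger3 lie close together between 0.18 and 0.23.

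Spread between libraries was wider in old than in young kidneys for each of the 7 genes. The coefficient of variation of Umod was 3.72% in young and 14.0% in old libraries, and that of Bsnd 7.91% and 25.7%. For Slc12a1 it was 7.98% and 16.8%, for Egf 7.86% and 19.1%, and for Kcnj1 7.53% and 14.6%. Kcnj16 had the lowest value in old libraries, 8.61% against 4.84% in young, and Ptger3 the highest in both, 20.6% in young and 27.85% in old. Wider spread in old libraries was not confined to the 7 genes. Over genes of higher count, the chi-square per degree of freedom between 2 libraries was 7.36 to 18.3 for old pairs and 3.57 to 8.74 for young pairs. The difference in spread was not tested.

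Ratios to Umod were taken within a library, each as the ratio of normalised count + 1, so they depend on how libraries were scaled to each other only through the added 1. Pseudocounts of 0.1 and 5 changed no call of these ratios. The log2 ratio of Egf to Umod was -1.72 ± 0.12 in young (SD, n = 4) and -0.87 ± 0.15 in old kidneys (SD, n = 5), a difference of 0.85 ± 0.09 (SE). For Slc12a1 the difference was 0.56 ± 0.08, for Kcnj16 0.50 ± 0.10 and for Bsnd -1.23 ± 0.23 (SE). These 4 ratios did not overlap between ages, 3 of the 6 with old above young and 1 with old below. Over all other tested genes the ratio to Umod did not overlap, with old above young, in 15.1% and, with old below young, in 29.1%. Each had p = 0.0159 in a two-sided exact permutation test, the smallest p that splits of 9 libraries into 4 and 5 allow, and 0.0238 after Benjamini-Hochberg adjustment over the 6 ratios. With 1 young library left out, the adjusted p of each of the 4 was 0.0536 by the same test, which then has fewer splits. That value also depends on how many of the 6 ratios reach the smallest p. The ratios of Kcnj1 (0.02 ± 0.13, exact permutation p = 0.937) and Ptger3 (0.04 ± 0.30, exact permutation p = 0.873) overlapped, and their intervals are too wide to show that these genes moved as Umod did. Within the old group the ratio of Bsnd to Umod ranged from -6.78 in replicate 4 to -5.67 in replicate 3.

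**Figure D3:**
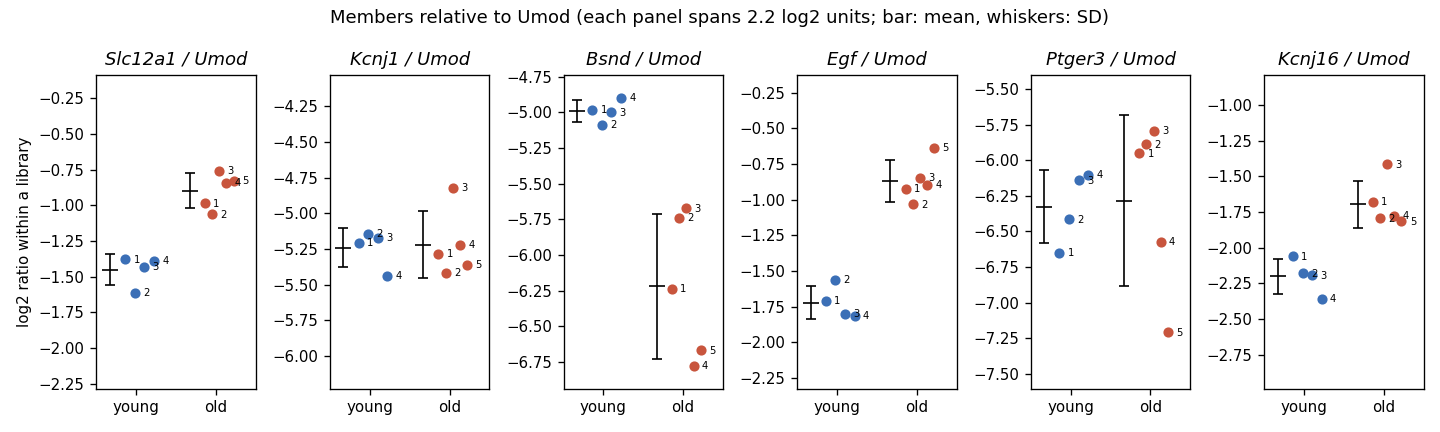
Log2 ratio of each gene to Umod in the same library (vertical axes, each spanning 2.2 log2 units), with points numbered by replicate, young in blue and old in red, and the mean and SD of each group at its left. Slc12a1, Egf and Kcnj16 are higher relative to Umod in each old library and Bsnd lower, whereas Kcnj1 and Ptger3 overlap.

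Each pattern over the 9 libraries was also set against those of all other tested genes, by the root mean square difference of log2 values after centring each gene on its own mean. The nearest genes were Oplah and Ndufs6 for Umod (0.08 for both), Tnrc6b (0.07) and Ndufv1 (0.08) for Slc12a1, and Syf2 (0.06) and Ppp1r7 (0.07) for Kcnj1. Sec24c (0.09) and Phlda2 (0.10) were nearest to Bsnd, Mfhas1 (0.07) and Trip12 (0.10) to Egf, and Pcyt1a (0.05) and Hdac4 (0.06) to Kcnj16. For Ptger3 they were 1110019B22Rik (0.20) and Fzd5 (0.21). The median over all genes was 0.43 to 0.68, depending on the gene. Other thick ascending limb genes were not the nearest: Kcnj16 ranked 103 for Slc12a1 (0.14), Slc12a1 ranked 340 for Egf (0.21), and the closest of the 7 to Bsnd was Ptger3 at rank 6451 (0.68). The measure includes the difference between ages.

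Genes that act with these 7 were taken from lists of 55 symbols, of which 49 were tested and 6 were not in the table (Cldn14, Wnk3, Calcr, Ptger2, Ptgs2 and Areg). Of the 49, 19 were called higher (38.8%) and 10 lower (20.4%), against 29.2% and 30.5% of all genes, and 20 were not called. Their median log2 fold change was 0.07. The lists were chosen with earlier results of these data known and do not cover every gene of a pathway, so their shares beside those of all genes are descriptions. Many of these genes are also expressed in other segments, and fold changes are given on the log2 scale with their SE.

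Of 3 further channel and Bartter syndrome genes, 2 rose, against 29.2% of all genes, and 1 was not called. Kcnj15, another inwardly rectifying potassium channel of the tubule, rose from 2581 ± 222 (SD, n = 4) to 5354 ± 615.5 (SD, n = 5), by 1.05 ± 0.10. Kcnj10, the partner of Kir5.1 in the distal nephron, was not called and had nearly equal means of 89.6 and 89.3. Maged2, mutated in a transient antenatal form of Bartter syndrome, rose by 0.60 ± 0.22 but was not called without young replicate 3, old replicate 2 (0.52 for both) or old replicate 4 (0.50).

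Atp1b1, a subunit of the sodium pump, rose from 11620 ± 692 to 17250 ± 604 normalised counts (SD, n = 4 and 5), by 0.57 ± 0.10. The pump regulator Fxyd2 was not called (-0.13 ± 0.12). Slc9a3, the apical sodium-proton exchanger of the proximal tubule and thick ascending limb, rose from 51.0 ± 12.8 to 172 ± 33.1 (1.75 ± 0.18, adjusted p = 1.1e-07 by limma). The sum of 10 proximal tubule markers was lower in each old library than in any young one. Of these markers 6 were called lower and 3 higher, against 30.5% and 29.2% of all genes. Their part in the pump and exchanger values was not tested.

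Among the claudins that line the paracellular path for cations, Cldn10 fell from 1793 ± 112 to 611 ± 78.5 normalised counts (SD, n = 4 and 5), a log2 change of -1.56 ± 0.10 (adjusted p = 3.93e-10 by limma). Cldn10 also has a proximal tubule isoform, which gene counts cannot separate. Cldn16 (0.06 ± 0.22) and Cldn19 (0.08 ± 0.16), which form the calcium and magnesium pore of the thick ascending limb, were not called. Cldn16 stood at 0.42 with the length trend removed, without a call, and signs of both turned with 1 library left out (-0.0667 to 0.24 and -0.0432 to 0.20).

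The kinases that switch on NKCC2 by phosphorylation, and their regulators, included 5 genes called higher and 1 lower of 8 tested, against 29.2% and 30.5% of all genes. Klhl3, a ubiquitin ligase adaptor that removes WNK kinases, rose most (1.14 ± 0.11), from 236 ± 26.1 (SD, n = 4) to 519 ± 40.9 (SD, n = 5). The kinases Stk39 (SPAK, 0.77 ± 0.13), Oxsr1 (0.56 ± 0.17), Wnk1 (0.59 ± 0.09) and Wnk4 (0.47 ± 0.11) rose as well. Wnk1 was no longer called once the trend of transcript length was removed (0.0024). Cab39, the adaptor that activates SPAK, fell from 240.5 ± 31.7 to 121 ± 10.2 (-0.98 ± 0.12). Nedd4l, a ubiquitin ligase of transporters (0.19 ± 0.11), and Cul3, the scaffold of the Klhl3 ligase (0.0035 ± 0.10), were not called, although Nedd4l was called higher without mitochondrial genes (0.33) and turned sign with the length trend removed (-0.20). These are transcript levels, and phosphorylation was not measured.

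Receptors through which hormones and calcium set salt transport were listed with the adenylyl cyclase gene Adcy6, and 3 of these 5 genes were called lower, against 30.5% of all genes. Casr, the calcium-sensing receptor, fell from 47.4 ± 10.9 to 25.2 ± 4.09 (-0.87 ± 0.22), and the parathyroid hormone receptor Pth1r, also a proximal tubule gene, from 4416 ± 143.5 to 1833 ± 278 (-1.28 ± 0.11). Adcy6, through which vasopressin acts, was called lower (-0.40 ± 0.16) but was not called under 7 of 20 alternatives. These were scaling without mitochondrial genes (-0.26) and leaving out young replicate 1, 3 or 4 or old replicate 2, 3 or 4 (-0.44 to -0.26). Avpr2, the vasopressin receptor, had a log2 fold change of -0.13 ± 0.25, which was -0.36 without old replicate 3 (118 normalised counts, against 35.0 to 62.4 in the rest of its group) and 0.0686 without old replicate 5. The glucagon receptor Gcgr had one of -0.63 ± 0.28 (adjusted p = 0.0574 by limma). Gcgr was called under 5 alternatives, among them leaving out young replicate 3, old replicate 1 or old replicate 2 (-0.84 to -0.73).

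The prostaglandin E2 pathway, to which Ptger3 belongs, had 2 genes called higher and 1 lower of 8 tested, shares below those of all genes. Ptger1, the EP1 receptor, rose from 27.5 ± 8.31 to 69.9 ± 51.8 (1.15 ± 0.33), and old replicate 3 held 162 normalised counts where the others of its group held 41.6 to 53.2. Without that library the fold change of Ptger1 was 0.79 and it was still called. The same library had the highest sums of principal cell markers (3557, against 1138 to 1668 in the rest of its group) and of adipocyte markers (689.6), whose part was not tested. The cyclooxygenase gene Ptgs1 rose by 0.53 ± 0.16, and the prostaglandin transporter Slco2a1 fell (-0.79 ± 0.19). Ptger4 (-0.51 ± 0.29), the synthases Ptges (-0.11 ± 0.15), Ptges2 (0.29 ± 0.13) and Ptges3 (0.04 ± 0.09), and Hpgd, which degrades prostaglandins (0.24 ± 0.18), were not called. Ptges2 was called higher under 7 of 20 alternatives (0.29 to 0.43), edgeR and DESeq2 and the fits without old replicate 2 or 3 among them. With the trend of transcript length removed, Hpgd (0.52) and Ptges3 (0.28) were called higher.

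Genes of the EGF receptor pathway, to which the Egf product belongs with other ligands, had 5 of 8 called higher and 1 called lower, against 29.2% and 30.5% of all genes. The receptor Egfr rose from 101 ± 11.6 (SD, n = 4) to 207.5 ± 15.7 (SD, n = 5), by 1.03 ± 0.12 (adjusted p = 8.95e-07 by limma), and Erbb2 rose by 0.64 ± 0.14. With the trend of transcript length removed the fold change of Egfr was 0.49 and it was still called, while that of Erbb4 was -0.85 and it was called lower (adjusted p = 0.00325 by limma). Erbb3 fell (-0.75 ± 0.14) and Erbb4 was not called (-0.22 ± 0.22). Of other ligands of these receptors, Btc (1.68 ± 0.25) and Hbegf (0.77 ± 0.19) rose, and Tgfa, with 16.6 normalised counts in young and 10.5 in old kidneys, was not called (-0.70 ± 0.37) except without old replicate 3 (-0.92). Trpm6, a magnesium channel of the distal convoluted tubule that EGF activates, rose from 25.9 ± 8.60 to 87.9 ± 4.40 (1.78 ± 0.20). Trpm6 is also in the list of distal convoluted tubule markers, so its call counts in both lists.

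Other genes enriched in the thick ascending limb moved in both directions. Sostdc1, a secreted BMP antagonist, rose from 520.4 ± 75.3 to 1100 ± 124.5 normalised counts (1.08 ± 0.11). Hpn, a serine protease that processes uromodulin, fell from 794 ± 31.2 to 447 ± 65.0 (-0.84 ± 0.11) and is also expressed in the proximal tubule. Tmem207 (-0.62 ± 0.27, adjusted p = 0.0531 by limma) and Ppp1r1a, a protein phosphatase inhibitor (0.07 ± 0.11), were not called. Tmem207 was called lower under 5 alternatives, including those without old replicate 3 (-0.67) or 5 (-0.72), and Ppp1r1a was called higher with the length trend removed (0.41).

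Of 7 transcription factors of the segment, 2 rose (28.6%) and 2 fell (28.6%), shares close to the 29.2% and 30.5% of all genes. Irx1 fell from 294.5 ± 61.1 (SD, n = 4) to 95.9 ± 31.7 (SD, n = 5), a log2 change of -1.65 ± 0.20, and Irx2 from 50.3 ± 7.76 to 23.9 ± 8.95 (-1.10 ± 0.25). Esrrg, an estrogen-related receptor, rose (0.62 ± 0.18), as did Pou3f3, a POU factor (0.41 ± 0.09), although Pou3f3 was not called once the trend of transcript length was removed (0.04). Esrrb (-0.24 ± 0.20), Tfap2b (-0.04 ± 0.11) and Ppargc1a (0.17 ± 0.11) were not called. Tfap2b was called lower with the length trend removed (-0.28) and stood at 0.11 without mitochondrial genes. Ppargc1a was called higher without mitochondrial genes (0.31) and stood at -0.13 with the length trend removed.

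**Figure D4:**
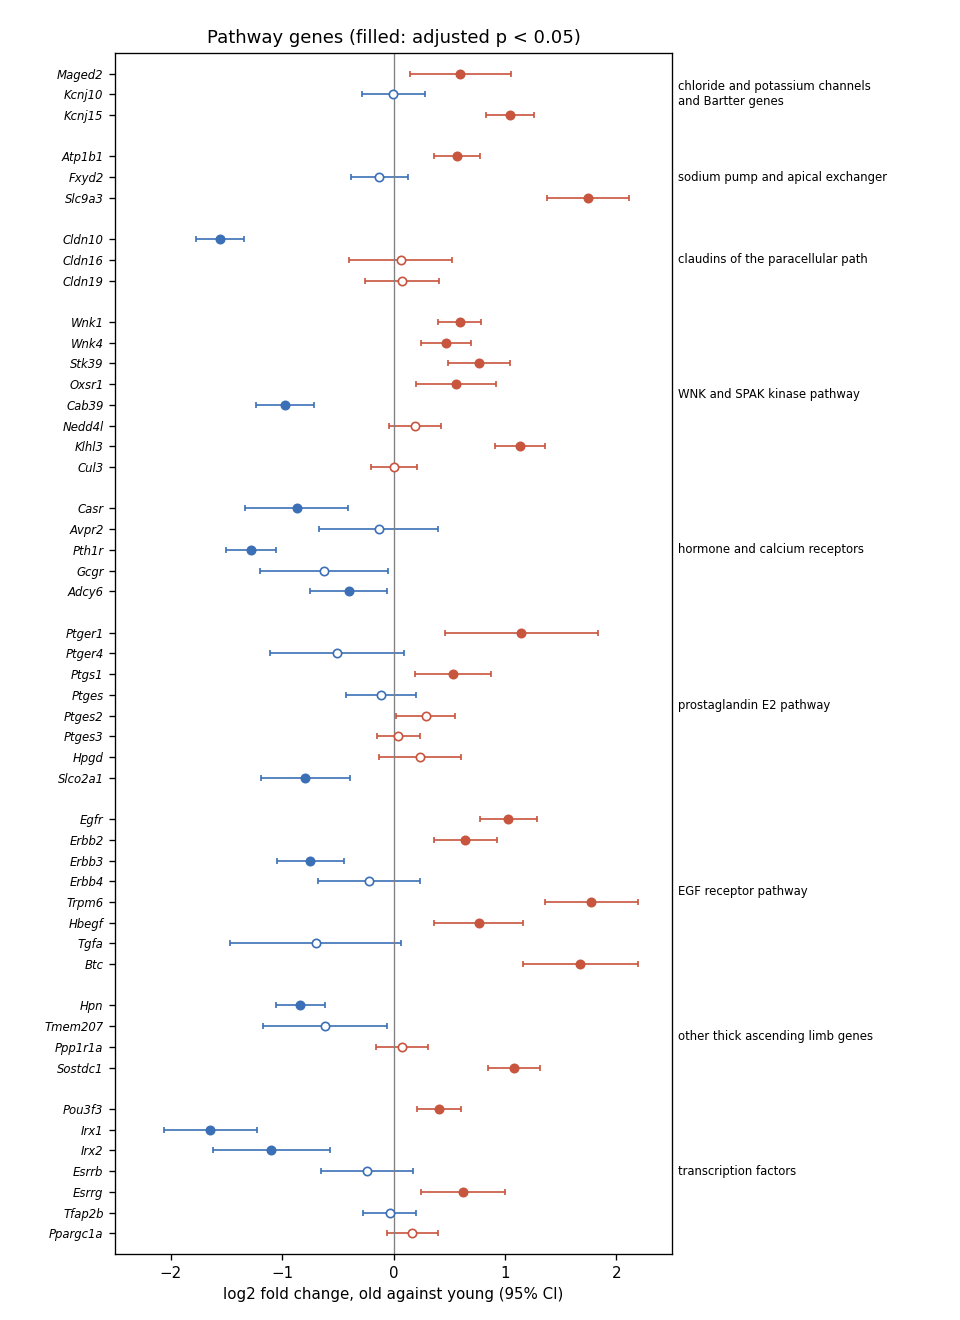
Log2 fold change of old against young kidneys with its 95% CI (horizontal axis) for the 49 tested pathway genes, grouped by list, red where above 0 and blue where below, filled where the adjusted p-value was under 0.05. Genes called higher and genes called lower stand together in most lists, from Irx1 (-1.65) to Trpm6 (1.78).

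Markers of other cell types were called at shares both above and below the 59.7% of all genes called in either direction. Summed levels were 2267 to 2911 normalised counts in young and 1138 to 3557 in old libraries for 7 principal cell markers (1 called higher, 4 lower), the 3557 being that of old replicate 3 and the next highest old value 1668. Of 3 thin limb markers tested 1 was called higher. Immune cell markers summed to 842 to 1060 in young and 1140 to 1553 in old libraries (3 of 5 tested called higher), endothelial cell markers to 1429 to 1481 and 1763 to 2015 (3 of 6 called higher), and podocyte markers to 685.5 to 753 and 736 to 869.9 (3 of 5 called higher and 1 lower). Adipocyte markers ranged from 2.46 to 559 in young and from 2.80 to 689.6 in old libraries, overlapping between ages, as the principal cell sums did. The old library with the highest principal cell sum, replicate 3, was also the one with the lowest Umod. The part of these markers in the values above was not tested.

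**Figure D5:**
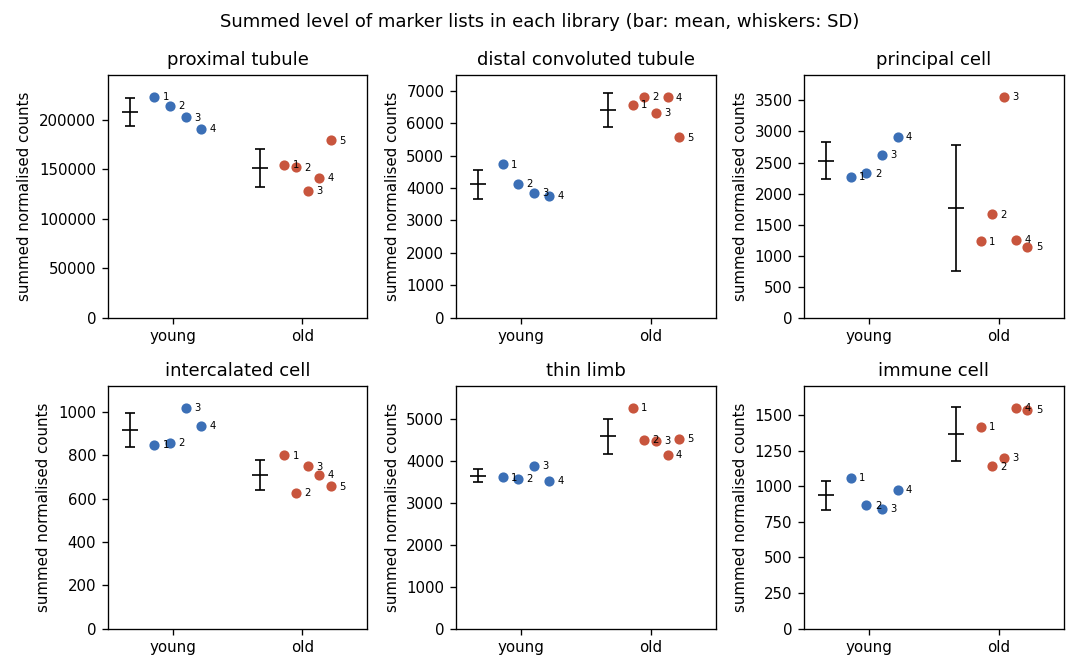
Summed normalised counts (vertical axes, each from 0) of 6 marker lists in each library, with points numbered by replicate, young in blue and old in red, and the mean and SD of each group at its left. Old libraries lie below young ones for proximal tubule and intercalated cell markers and above them for distal convoluted tubule, thin limb and immune cell markers, and old replicate 3 stands apart for principal cell markers (3557).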

How the data were processed

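Kidney RNA of wild-type mice was sequenced in 4 young (3 months) and 5 old (16 months) libraries, grouped by the age in the labels. Replicate numbers follow listing order only. The authors aligned single stranded reads to GRCm39 (TopHat2 2.0.10, Bowtie 1.0.0, SAMtools 0.1.19 and FastQC 0.11.7 are named in the submitters' processing notes), counted them per gene with HTSeq 0.6.1 on GENCODE vM26 and scaled them with DESeq2. The labels and the study's methods name different versions of the 3′ library kit. The values the authors deposited are a signal: gene-level read counts that had been divided by the size factor of their library. Taking the smallest positive value of a library as 1 read, 100% of values were whole multiples (tolerance 1e-06). Genes of low count were absent by a rule not given in the sources used here (lowest gene mean 4.49 normalised counts).

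A gene entered the test if 4 or more libraries reached 10 normalised counts. The test was limma 3.58.1 (R 4.3.3, variance trend) on log2(normalised count + 1), old against young, without covariates, with Benjamini-Hochberg adjustment over all genes tested. This scale understates changes of genes with low counts. On the recovered reads edgeR 4.0.16 called 7649 genes and DESeq2 1.42.0 called 7532, against 7568 by limma. Ratios to Umod were tested by exact permutation (scipy 1.17.1). The other alternatives were pseudocounts of 0.1 and 5, no filter, a minimum mean of 100 normalised counts, TMM factors, scaling to the table total, scaling without mitochondrial genes, removal of the transcript length trend by lowess, and each library left out. Drawing reads down to the smallest table total was added after seeing the data. The scripts were tested on simulated data.

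The 7 genes, the pathway and marker lists, the motifs and the tests were chosen with earlier results of these data known. Some pathway genes and 1 motif are not reported here and are in no count of the pathway lists, although calls over all genes include them. Named genes are the 7, every other tested pathway gene and the 2 genes of most similar pattern for each of the 7. Positions and lengths came from GENCODE vM21 on GRCm38, not the authors' build, matched by symbol (12856 genes, 98.3%). Confidence intervals of fold changes are those of limma and rest on the spread between libraries, whereas the floor of 3 reads covers counting error only, since reads carry no molecular identifiers.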

Additional observations from a re-analysis of the deposited data

Results flagged for a closer look

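Single libraries stood apart from the rest of their group in 3 of 124 groups of 4 or 5 libraries examined, each with a gap to its nearest neighbour that took up most of the group's range. Chance gives about 1 in 20, or 6.2 of 124. All 3 were pathway genes in old libraries, and none was one of the 7 thick ascending limb genes. Ptger1 was at 7.35 on the log2 scale (162 normalised counts) in old replicate 3, where the rest of the group lay between 5.41 and 5.76. Cab39 was at 6.71 (103 normalised counts) in old replicate 3, below the 6.95 to 7.02 of its group. Sostdc1 was at 10.36 (1317 normalised counts) in old replicate 4, above the 9.97 to 10.08 of its group.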

How the results depend on the processing

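Slc12a1 (0.61 to 0.88), Egf (0.91 to 1.18), Kcnj16 (0.63 to 0.83) and Bsnd (-1.16 to -0.90) kept their direction and call under all 20 alternatives. Umod was called without mitochondrial genes (0.33) and with the length trend removed (0.34), and ranged from 0.12 to 0.25 with 1 library left out. Kcnj1 was called without mitochondrial genes (0.34), and Ptger3 ranged from 0.10 to 0.43 with 1 library left out. Between 4 and 6 of the 7 genes and between 21 and 32 pathway genes were called. The main fit called 29 of 49 pathway genes, beside 59.7% of all genes. The 21 came with a minimum mean of 100 normalised counts, where fewer pathway genes were tested and Ptger3 was not tested. Over all genes 4101 were called with a minimum mean of 100 normalised counts, where 5655 were tested. With 1 library left out, differences in the ratio to Umod were 0.50 to 0.60 (Slc12a1), -1.36 to -1.09 (Bsnd), 0.80 to 0.91 (Egf), 0.43 to 0.55 (Kcnj16), -0.0805 to 0.0689 (Kcnj1) and -0.0773 to 0.28 (Ptger3). The first 4 lost their call without a young library, where the adjusted p of each was 0.0536 by the exact permutation test with fewer splits. Of 49 pathway genes 22 changed under at least 1 alternative (of 960 values, 12 lost a call, 25 gained one and 31 turned sign). Signs turned for Cul3 with TMM factors (-0.0008), the table total (-0.0494) and the length trend removed (-0.12), and for Ptges3 with the table total (-0.0118). Without mitochondrial genes they turned for Avpr2 (0.0082), Fxyd2 (0.0152), Kcnj10 (0.14), Ptges (0.0256) and Tfap2b (0.11), and with the length trend removed for Avpr2 (0.0050), Fxyd2 (0.15), Nedd4l (-0.20) and Ppargc1a (-0.13). Leaving out 1 library gave -0.0667 to 0.24 for Cldn16, -0.0432 to 0.20 for Cldn19, -0.0639 to 0.0274 for Kcnj10, -0.0021 to 0.14 for Ppp1r1a, -0.0925 to 0.0382 for Tfap2b, -0.0475 to 0.0409 for Cul3 and -0.36 to 0.0686 for Avpr2. The cause was not tested. No paired analysis was possible because the replicate numbers only follow listing order. Table totals cover the listed genes only, which limits statements on depth.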
